A study of Rattus norvegicus with 8 samples.

Results

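Expression of the immediate early genes Fos, Jun, Egr1 and Myc was followed across rat cardiac fibroblasts, myofibroblasts and microcurrent-treated myofibroblasts. These 4 of the 21867 genes in the deposited count table were chosen by name and not by a rule on their values. Earlier results of these data were known at that time. The genes are ENSRNOG00000008015 (Fos), ENSRNOG00000026293 (Jun), ENSRNOG00000019422 (Egr1) and ENSRNOG00000004500 (Myc). RNA was sequenced from 8 libraries in 4 groups of 2, which the labels call biological replicates. Neonatal cardiac fibroblasts (CF) of Wistar Kyoto rats, grown in standard medium with serum, were the healthy control. Myofibroblasts (MF), the contractile and matrix-producing cells of scar tissue, were made from CFs by repeated passaging and low serum. The other groups, MF +1 µA and MF +2 µA, were such myofibroblasts under direct current at 1 or 2 µA/cm2 for 72 h, kept in standard medium. All cells were primary cultures from neonatal hearts. The medium of the untreated MFs over those 72 h is not given in the sources used here, so an effect of serum and an effect of current cannot be told apart. During treatment the medium was changed daily, and the time from the last change to harvest is not given either. The treated libraries show levels after 72 h, not the first response to current.

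Immediate early genes are transcribed within minutes of a stimulus such as serum, a growth factor, calcium influx or mechanical stress, by factors that are already in the cell, and most of their transcripts are short-lived. Fos and Jun encode basic leucine zipper proteins that pair to form the transcription factor AP-1, Egr1 encodes a zinc finger transcription factor, and Myc encodes a helix-loop-helix factor that works with Max on genes of growth and proliferation. In fibroblasts they are known from the response to serum, in which serum response factor acts on Fos and Egr1 through a DNA site called the CArG box.

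The promoter of Egr1 is shown because, of these genes, only Egr1 was in the set of promoter sequences used here. It carries CArG boxes, the site of that pathway. It was taken from RefSeq, assembly GRCr8, at chr18:26736828-26737127 on the + strand, and runs from 250 bases before to 50 after the gene's start. The counts themselves were made on rn6, and no position is compared between the builds. Capitals mark the CArG boxes.
Egr1 promoter: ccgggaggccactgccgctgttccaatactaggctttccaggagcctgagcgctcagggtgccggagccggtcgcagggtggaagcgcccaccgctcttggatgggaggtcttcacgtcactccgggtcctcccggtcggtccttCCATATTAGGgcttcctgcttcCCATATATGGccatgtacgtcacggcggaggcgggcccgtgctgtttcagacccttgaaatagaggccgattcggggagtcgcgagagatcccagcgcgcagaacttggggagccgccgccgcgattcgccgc

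The window held 2 CArG boxes, CCATATTAGG and CCATATATGG, which begin 105 and 83 bases before the start. Of the 33469 promoters in the RefSeq table, 1.64% held at least 1 CArG box and 7 promoters (0.0209%) held 2 or more. Egr1 is one of these 7. The motif ACGTCA, the core of the cyclic AMP response element, also occurred at 2 places, 136 and 67 bases before the start, and 7.94% of all promoters held it at least once. Both strands were searched, and a palindromic match was counted once. The longer element TGACGTCA, which contains ACGTCA and is held by 1.83% of promoters, was not matched in this window. The AP-1 motif TGANTCA (7.33% of promoters), the TATA motif TATAAA (14.2%), the EGR motif GCGNGGGCG (4.98%), the E-box CACGTG (6.42%) and the GC box GGGCGG (33.1%) were not matched either. Promoters of Fos, Jun and Myc were not in the set of sequences used here and are not shown.

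Estimated counts summed to between 26473085 and 37903701 per library, and all 4 genes were among the 13849 that passed the filter on low counts. Levels are given as CPM, the count relative to the library total, with totals scaled between libraries by TMM. They are comparable between libraries for a gene but not between genes, whose lengths differ. The lowest estimated count of any of the 4 genes was 1363, for Myc in MF replicate 1, with an exact 95% Poisson interval from 1292 to 1437 that covers counting error only. Such intervals overlapped between the MF replicates of Fos, Egr1 and Myc. All comparisons come from 1 edgeR quasi-likelihood fit of the 8 libraries. Called genes are those that passed both thresholds of the study, an adjusted p (Benjamini-Hochberg) below 0.05 and a fold change of at least 2. In bulk RNA, fewer cells that express a gene and less RNA per cell cannot be told apart. The labelled cell types were not checked against marker genes, since the tables hold Ensembl IDs without symbols.

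The CF libraries differed widely for Fos, Jun and Egr1 and are described before any comparison. CF replicate 2 held the highest level of Fos, Jun and Egr1 among the 8 libraries, and CF replicate 1 held the lowest level of Fos and Egr1. Over all genes tested, CF replicate 2 was the highest library in 2306 (16.7%). Fos was 8.70-fold higher in CF replicate 2 than in CF replicate 1, Egr1 was 5.70-fold higher and Jun was 2.88-fold higher, whereas Myc differed by 1.07-fold. Of the 13849 genes, 34 (0.246%) were at least as far apart between the CF libraries as Fos, 74 (0.534%) as far as Egr1 and 443 (3.20%) as far as Jun. CF replicate 2 was at least 2-fold above each of the other 7 libraries in 123 genes (0.888%), Fos and Egr1 among them. With only 2 CF libraries, the values cannot decide which of them is unusual, and why they differ was not tested. Fold changes that rest on CF replicate 2 are given with and without it.

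**Figure D1:**
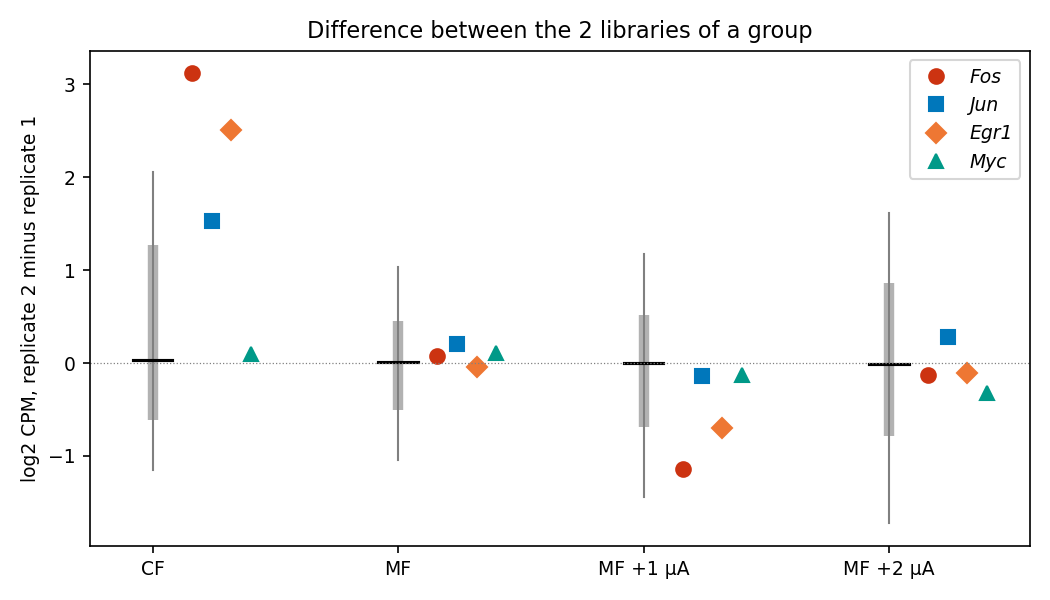
Difference in log2 CPM between replicate 2 and replicate 1 of each group on the vertical axis, with coloured symbols for the 4 genes. Grey bars hold the middle 90% of all 13849 genes tested, thin lines the middle 98%, and black ticks the median; in CF, Fos and Egr1 lie above the thin line, at 3.12 and 2.51, and Myc lies near 0.

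Fos, a subunit of AP-1, ranged more widely over the libraries than the other 3 genes. In CF its level was 90.3 and 786 CPM, in MF 99.5 and 105 CPM, in MF +1 µA 277 and 126 CPM, and in MF +2 µA 234 and 213 CPM, replicate 1 before replicate 2. All treated libraries thus lay above both MF libraries, while the CF libraries lay on either side of all others. Relative to the mean of MF, the treated libraries stood at 2.71, 1.23, 2.29 and 2.09. MF replicates differed by only 1.05-fold, but those of MF +1 µA by 2.20-fold, a distance that 2.91% of all genes reached. On the authors' variance-stabilised (vst) scale, which is in log2 units, Fos stood at 13.00 ± 2.18 (SD, n = 2) in CF, 11.63 ± 0.05 (SD, n = 2) in MF, 12.48 ± 0.80 (SD, n = 2) at 1 µA and 12.74 ± 0.09 (SD, n = 2) at 2 µA.

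Jun, the partner of Fos in AP-1, was higher in every treated library than in either MF library, with little spread inside these groups. Its level was 93.3 and 269 CPM in CF, 62.3 and 71.9 CPM in MF, 138 and 126 CPM in MF +1 µA, and 137 and 167 CPM in MF +2 µA. Both MF libraries were below all 6 other libraries, as also for Myc and for 17.7% of all genes, and no treated library reached down to CF replicate 1. The treated libraries stood at 1.87 to 2.49 times the MF mean. On the vst scale Jun stood at 12.24 ± 1.07 (SD, n = 2) in CF, 11.05 ± 0.13 (SD, n = 2) in MF, 11.98 ± 0.08 (SD, n = 2) at 1 µA and 12.19 ± 0.20 (SD, n = 2) at 2 µA.

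Egr1, the zinc finger factor, followed Fos in CF and among the 1 µA libraries but differed less between MF and the treated groups. Its level was 168 and 958 CPM in CF, 267 and 259 CPM in MF, 389 and 240 CPM in MF +1 µA, and 339 and 315 CPM in MF +2 µA. In contrast to Fos and Jun, the treated and the MF libraries overlapped, because MF +1 µA replicate 2 lay below both MF libraries. The other 3 treated libraries lay above both, the highest at 1.48 times the MF mean. The vst values were 13.57 ± 1.77 (SD, n = 2) in CF, 12.99 ± 0.05 (SD, n = 2) in MF, 13.18 ± 0.47 (SD, n = 2) at 1 µA and 13.29 ± 0.07 (SD, n = 2) at 2 µA.

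Myc, whose product drives growth and proliferation genes, varied least and did not share the high level of CF replicate 2. Its level was 69.6 and 74.5 CPM in CF, 51.0 and 55.0 CPM in MF, 78.2 and 71.8 CPM in MF +1 µA, and 75.9 and 60.6 CPM in MF +2 µA. The MF libraries were again the lowest of the 8, and the CF and treated libraries overlapped. On the vst scale Myc stood at 11.11 ± 0.06 (SD, n = 2) in CF, 10.74 ± 0.0025 (SD, n = 2) in MF, 11.19 ± 0.11 (SD, n = 2) at 1 µA and 11.05 ± 0.16 (SD, n = 2) at 2 µA.

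**Figure D2:**
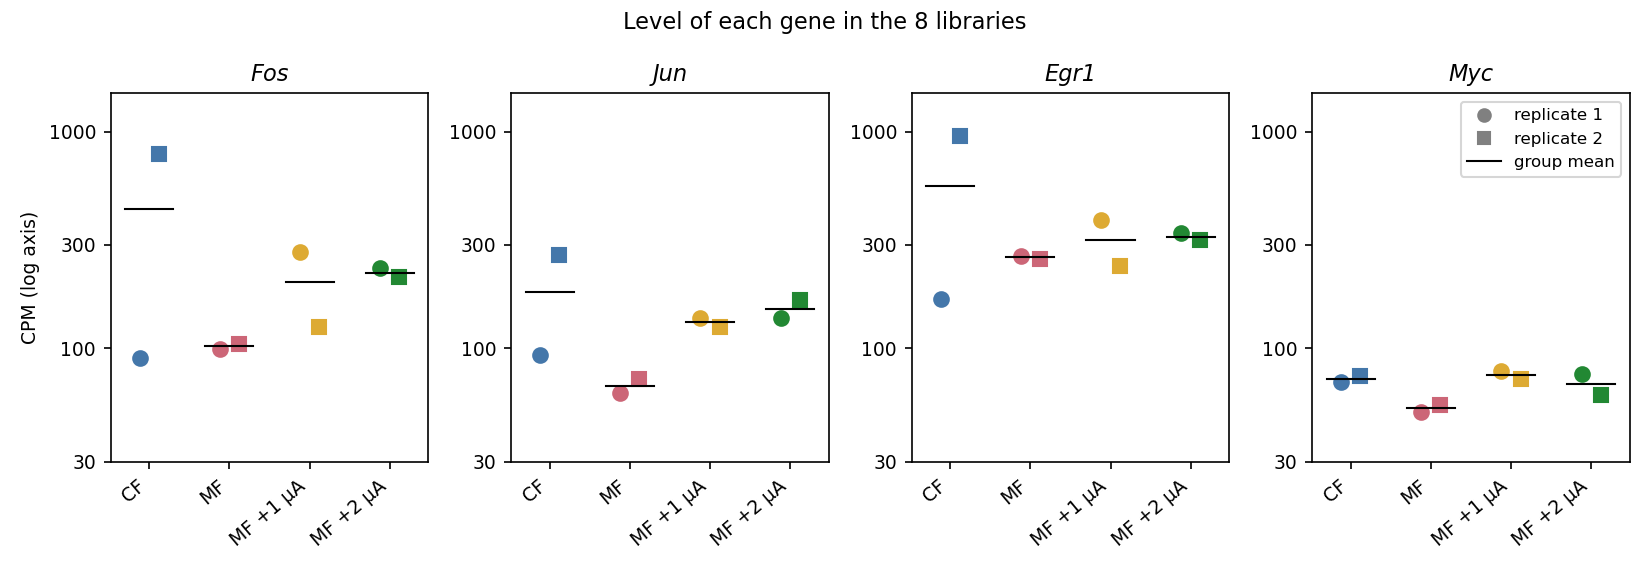
Level of each gene in CPM on a log axis, in the 2 libraries of each group (circles, replicate 1; squares, replicate 2), with the group mean as a line. For Fos, Jun and Egr1 CF replicate 2 is the highest point, at 786, 269 and 958 CPM, and for Jun and Myc both MF libraries are the lowest.

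Across the groups MF had the lowest mean level of all 4 genes. For Fos, Jun and Egr1 the order of the mean log2 CPM was CF, then MF +2 µA, then MF +1 µA, then MF, and for Myc it was MF +1 µA, CF, MF +2 µA and MF. The libraries of the top 3 groups overlapped in each order, so 2 libraries per group do not settle the places of these groups. MF did not overlap the group next above it, except for Egr1. How many other genes show this was not counted, but in 26.4% of all genes every treated library lay above both MF libraries. For Fos, Jun and Egr1 the place of CF is set by CF replicate 2. Without that library, CF would stand below MF for Fos and Egr1 and between MF and the treated groups for Jun.

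The comparison of MF with CF sets myofibroblasts against fibroblasts, the cells they were made from. The MFs were made by passaging and low serum, so effects of cell state, passage and serum cannot be told apart here. None of the 4 genes was called, against 10.4% of all genes tested, and 3 of the 4 (Fos, Jun and Myc) had an unadjusted p below 0.05, all lower in MF, against 18.5% of all genes lower at that p. Jun was 2.70-fold lower in MF than in CF, with a log2 fold change of -1.43 ± 0.44 (SE) and an adjusted p of 0.0640 from edgeR's quasi-likelihood test. Myc had a log2 fold change of -0.44 ± 0.13 (SE; edgeR adjusted p = 0.0552). The fold change of Fos was -2.10 ± 0.88 (SE; edgeR adjusted p = 0.140) on the log2 scale, and that of Egr1 was -1.10 ± 0.69 (SE; edgeR adjusted p = 0.298). Both MF libraries lay below both CF libraries for Jun and Myc, a separation that 34.4% of all genes showed in that direction. DESeq2 called 1 of the 4 genes here, Jun, at an adjusted p of 0.00246. It called more genes in all than edgeR did, 1716 against 1438.

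CF replicate 2 decided the direction of this comparison for Fos and Egr1. Without it, the log2 fold change of MF against the remaining CF library was 0.18 for Fos (edgeR adjusted p = 0.793) and 0.65 for Egr1 (edgeR adjusted p = 0.132), so that both were higher in MF. Without CF replicate 1 in its place, they were -2.93 and -1.85, and both were called (edgeR adjusted p = 0.0150 and 0.0114). Jun kept its direction, at -0.48 without CF replicate 2 (edgeR adjusted p = 0.0648), and was called at -1.99 without CF replicate 1 (edgeR adjusted p = 0.00281). Myc was almost the same with either library, at -0.40 ± 0.15 (SE) without CF replicate 2 (edgeR adjusted p = 0.0996). A lone library was here assumed to vary like those of the other groups.

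The comparison of treated cells with MF asks whether the genes differed after microcurrent. Taking the mean of both current densities, the fold change of treated cells over MF was 2.08 for Fos, 2.11 for Jun, 1.35 for Myc and 1.22 for Egr1. None of the 4 was called, against 6.76% of all genes, and 2 of them (Jun and Myc) had an unadjusted p below 0.05, both higher in treated cells, against 16.1% of all genes higher at that p. By adjusted p alone, Myc passed, with a log2 fold change of 0.43 ± 0.11 (SE) and an adjusted p of 0.0471 from edgeR's quasi-likelihood test, where 7% of all genes passed as higher. Its adjusted p ranged from 0.0131 to 0.300 over the alternatives, and it did not pass, among others, in the whole-number matrix (0.0510) and in the fits that left out either MF library, either 1 µA library or MF +2 µA replicate 1. Jun had a log2 fold change of 1.08 ± 0.39 (SE; edgeR adjusted p = 0.109), and its interval of 95% confidence ran from 0.15 to 2.00. Fos had a log2 fold change of 1.06 ± 0.77 (SE; edgeR adjusted p = 0.383), with an interval from -0.78 to 2.89, and Egr1 one of 0.29 ± 0.60 (SE; edgeR adjusted p = 0.774), with an interval from -1.13 to 1.70. For Fos, Jun and Myc all 4 treated libraries lay above both MF libraries, which 26.4% of all genes did.

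The spread in CF entered this comparison too, because the 4 groups share an estimate of the spread of each gene. Leaving out either CF library left the fold changes of treated cells against MF almost in place. Yet in each of these fits the SE of Jun fell from 0.39 to 0.12 and that of Fos from 0.77 to 0.32. The smaller SE was thus not particular to leaving out CF replicate 2. Jun was then called without either CF library, with a log2 fold change of 1.08 in each fit. It was also called with only the MF and treated libraries in the fit (edgeR adjusted p = 0.00319) and by DESeq2 over all libraries (adjusted p = 0.0118). Those 2 fits called 1109 and 1110 genes in all, against 936 in the main fit. Fos remained short of the threshold without CF replicate 2 (edgeR adjusted p = 0.0668). Egr1 had an adjusted p of 0.317 and a log2 fold change of 0.29 ± 0.19 (SE) in that fit.

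**Figure D3:**
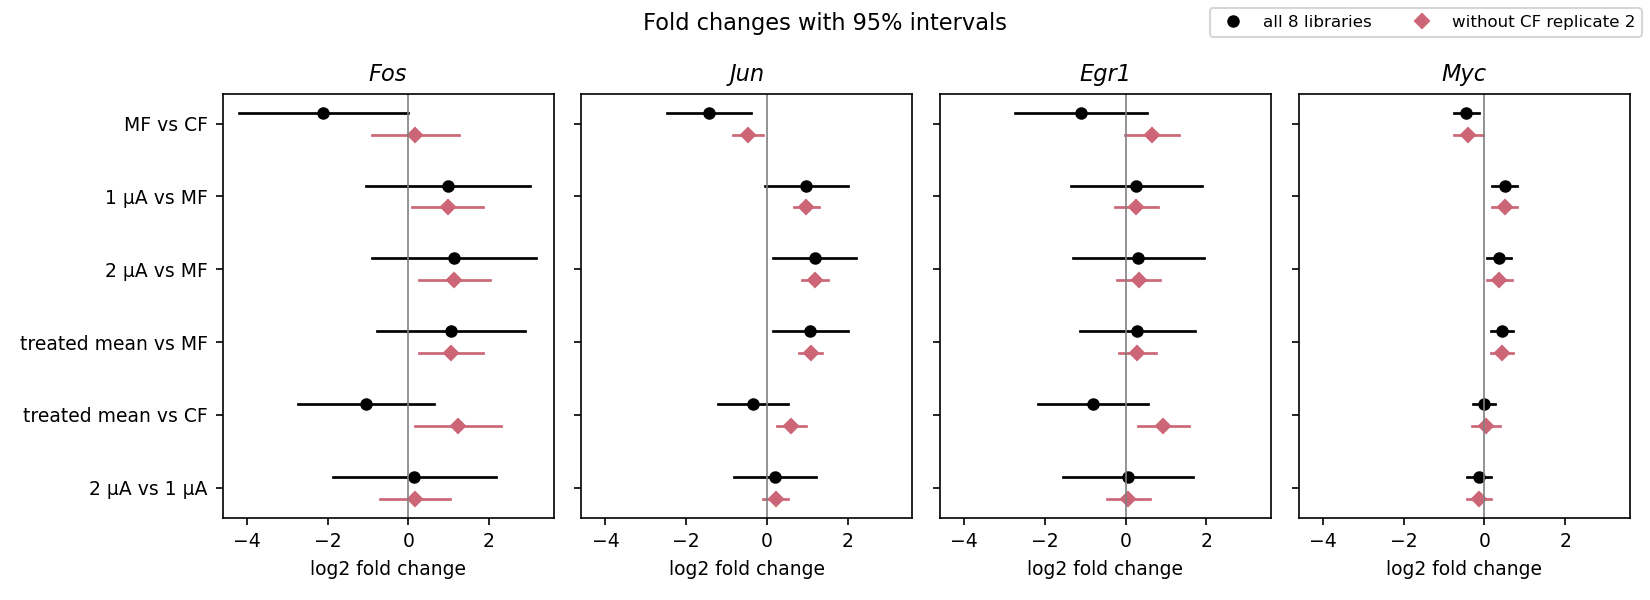
Log2 fold change of each gene in the 6 comparisons (rows), with 95% confidence intervals from edgeR, for all 8 libraries (black) and without CF replicate 2 (red). Against MF the values of treated cells stay in place and their intervals shrink, as for Jun at 1.08 in both fits, whereas in treated cells against CF the values of Fos, Jun and Egr1 change sign.

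Each current density was also compared with MF on its own, and both comparisons share the MF libraries. At 1 µA the log2 fold changes were 0.98 ± 0.85 (SE) for Fos, 0.97 ± 0.43 (SE) for Jun, 0.26 ± 0.68 (SE) for Egr1 and 0.50 ± 0.13 (SE) for Myc. At 2 µA they were 1.13 ± 0.86 (SE), 1.18 ± 0.43 (SE), 0.31 ± 0.68 (SE) and 0.37 ± 0.13 (SE) in the same order. No gene of the 4 was called at 1 µA, where 3.92% of all genes were, or at 2 µA, where 4.62% were. At an unadjusted p below 0.05, 1 of the 4 (Myc) was higher at 1 µA, against 13.4% of all genes, and 2 (Jun and Myc) at 2 µA, against 14.1%. DESeq2 called none at 1 µA, where it called 939 genes in all. At 2 µA it called 1, Jun, with an adjusted p of 0.0226, among 1034 genes in all. The lowest adjusted p at 1 µA was 0.0646, for Myc, and at 2 µA 0.123, also for Myc (edgeR's quasi-likelihood test). Without CF replicate 2, Jun passed the threshold of adjusted p at 1 µA, but its log2 fold change of 0.97 was just under the fold threshold. At 2 µA it was called in that fit, with a log2 fold change of 1.19. Without CF replicate 1 in its place, Jun again had 0.97 at 1 µA and was called at 1.19 at 2 µA (edgeR).

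The fold change of Fos at 1 µA depended on MF +1 µA replicate 1. Without that library the log2 fold change of Fos against MF was 0.30, and without MF +1 µA replicate 2 it was 1.44. For Egr1 these values were -0.13 and 0.56, so its direction at 1 µA turned on a single library. Jun and Myc did not depend on it in this way, since their 1 µA libraries differed by 1.10-fold and 1.09-fold.

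Between 2 µA and 1 µA no difference was detected in any of the 4 genes, and 1 gene in all (0.00722%) was called. The log2 fold change of 2 µA against 1 µA was 0.15 for Fos, with a 95% interval from -1.86 to 2.16, and 0.05 for Egr1, from -1.56 to 1.67. For Jun it was 0.21, from -0.81 to 1.22, and for Myc -0.14, from -0.44 to 0.17. Intervals of this width leave room for a change of more than 2-fold in Fos, Jun and Egr1 but not in Myc. The adjusted p was 1 for all 4 genes (edgeR's quasi-likelihood test), and 0 of the 4 had an unadjusted p below 0.05, against 0.52% of all genes. The smallest was 0.325, for Myc, and DESeq2 called 0 of them too.

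The comparison of treated cells with CF asks how near they came to the starting cells. None of the 4 genes was called, against 7.65% of all genes, and 0 of them had an unadjusted p below 0.05, against 30.6%. DESeq2 called 0 as well. Myc had a log2 fold change of -0.01 and a 95% interval from -0.27 to 0.25 (edgeR adjusted p = 0.962). Jun had a log2 fold change of -0.35 ± 0.36 (SE; edgeR adjusted p = 0.562), Fos one of -1.05 ± 0.71 (SE; edgeR adjusted p = 0.368) and Egr1 one of -0.81 ± 0.57 (SE; edgeR adjusted p = 0.387). These 3 changed sign without CF replicate 2, to 0.60 for Jun (edgeR adjusted p = 0.0420), 1.23 for Fos (edgeR adjusted p = 0.108) and 0.93 for Egr1 (edgeR adjusted p = 0.0601). Against CF replicate 2 alone, Fos and Egr1 were called as lower in treated cells, with log2 fold changes of -1.87 and -1.56 (edgeR adjusted p = 0.0325 and 0.0124).

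Ratios between genes within a library do not depend on how libraries are scaled. The ratio of estimated counts of Fos to Egr1 was 0.373 and 0.404 in MF, below all other libraries. It was 0.538 and 0.820 in CF, 0.712 and 0.524 in MF +1 µA, and 0.691 and 0.677 in MF +2 µA. The ratio of Jun to Egr1 was 0.233 and 0.278 in MF and from 0.355 to 0.530 in the treated libraries, with 0.555 and 0.281 in CF. On the log2 scale the treated libraries exceeded MF by 0.74 for Fos to Egr1 and by 0.81 for Jun to Egr1, each with an exact two-sided permutation p of 0.133 (n = 4 and 2), the smallest that this design allows. Fos and Jun were thus higher relative to Egr1 in every treated library than in either MF library. How many other genes do so relative to Egr1 was not counted. By level alone, 26.4% of all genes were higher in every treated library than in either MF library. In the whole-number count matrix MF was again the lowest for Fos to Egr1, with 0.373 and 0.383 and at least 0.514 in the other libraries.

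**Figure D4:**
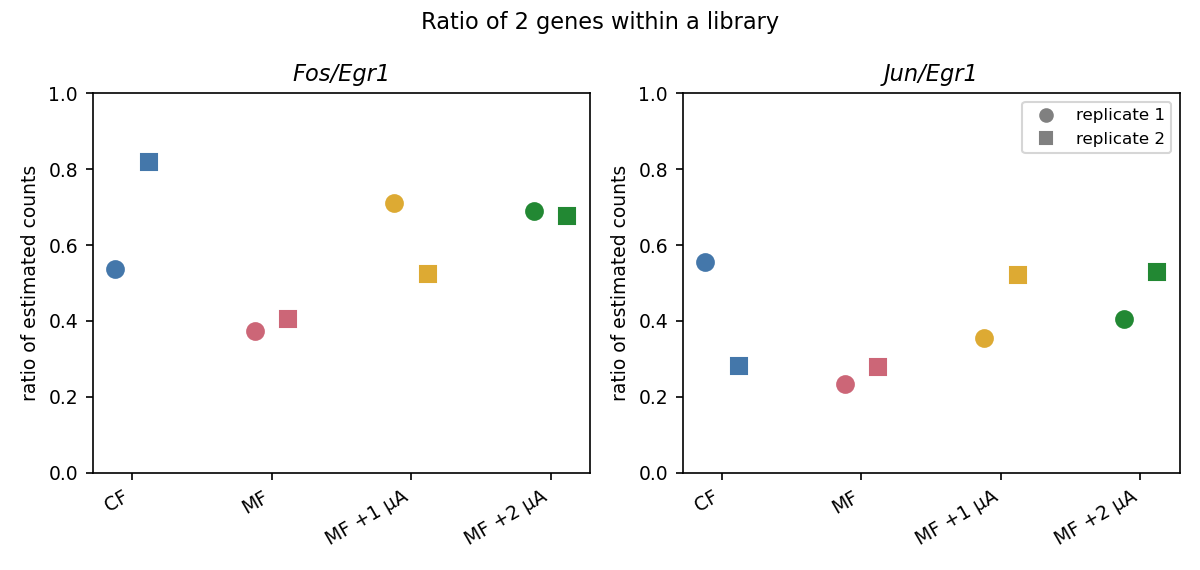
Ratio of estimated counts of Fos to Egr1 (left) and Jun to Egr1 (right) in each library, from 0 on a linear axis (circles, replicate 1; squares, replicate 2). Both MF libraries are the lowest in each panel, at 0.373 and 0.404 for Fos to Egr1 and at 0.233 and 0.278 for Jun to Egr1.

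The 4 genes did not share a single pattern. Over the 8 libraries, which include CF replicate 2, Pearson's r of log2 CPM was 0.956 between Fos and Egr1, 0.902 between Fos and Jun and 0.768 between Jun and Egr1, given as a description without a test. Without CF replicate 2 these were 0.871, 0.810 and 0.474 over 7 libraries. Myc stood apart from Egr1 (0.354 with all libraries and 0.211 without CF replicate 2) and was nearer to Jun (0.691 and 0.705). All genes tested whose group means span at least 0.5 on the log2 scale were ranked, over all 8 libraries only. Among them Egr1 was the third most like Fos, and Fos was the third most like Egr1 (the fifth without that limit on the span).

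With the same limit on the span, the gene nearest to both Fos and Egr1 was ENSRNOG00000046667. Its r was 0.991 to Fos and 0.981 to Egr1 over the 8 libraries, and 0.977 and 0.931 without CF replicate 2. Its estimated counts were 170 and 8219 in CF, 214 and 206 in MF, 1009 and 264 in MF +1 µA, and 666 and 788 in MF +2 µA. Picked for its r over these same libraries, it shared with Fos the high CF replicate 2 and the low MF +1 µA replicate 2. The gene nearest to Jun was ENSRNOG00000001065 (r = 0.967), with 2813 and 3668 estimated counts in CF, 1689 and 1797 in MF and 2588 to 3253 in the treated libraries. ENSRNOG00000004697 was nearest to Myc (r = 0.983), at 28 and 27 estimated counts in CF, 6 in each MF library and 13 to 27 in the treated libraries. The files do not pair these IDs with symbols.

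The deposited whole-number matrix, with 13341 genes, comes by its labels from STAR alignments. It held from 79.0% to 86.9% of the estimated count for Fos, Egr1 and Myc in each library. For Jun it held only 23.4% to 28.8%, in all groups alike. The levels of Jun in the 2 tables are therefore not comparable, but the fold change of treated cells against MF was 1.01 on the log2 scale in the matrix (edgeR adjusted p = 0.0951) and 1.08 in the estimated counts, and that of MF against CF was -1.39 and -1.43. In the matrix the latter was called for Jun (edgeR adjusted p = 0.0482), as it was for 1317 genes in all. The cause of the lower share of Jun was not tested.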

How the data were processed

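Salmon (rn6) and tximeta were the tools with which the authors obtained the deposited estimated counts. The authors also deposited these counts divided by DESeq2 factors (a normalized signal, used only to recover transcript length offsets), variance-stabilised values on a log2 scale, and a matrix of whole-number counts whose counting tool is not given in the sources used here. The submitters' processing notes name STAR and DESeq2 1.28.1.

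Estimated counts were rounded and tested with edgeR 4.0.16 in R 4.3.3 (filterByExpr, TMM, robust quasi-likelihood F test, 1 coefficient per group over all 8 libraries, 4 residual degrees of freedom), with Benjamini-Hochberg adjustment over 13849 genes. SEs were derived from the fold change and F. CPM was TMM-scaled, and log2 CPM used a prior count of 2. Chi-square per gene between replicates ranged from 16.5 to 117, so that in no group was 1 replicate a copy of the other. Tested on simulated counts of MF against CF with 4-fold changes (13662 genes), the fit called 183 of 199 changed genes with the correct sign, beside 1 gene that had not been changed. Each simulated gene had the spread typical of its level, and no library was outlying. These figures therefore do not carry over to Fos, Jun or Egr1, which differed widely between the CF libraries.

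The genes and lists were chosen with earlier results of these data known. Gene lists and cell type markers planned by symbol (AP-1 partners, EGR and MYC families, other immediate early genes, ERK feedback, MYC targets) were not used, because no table used here pairs Ensembl IDs with symbols. The rule for named genes was these 4 genes and the nearest gene in pattern to each, by Pearson's r of log2 CPM, among genes whose group means span at least 0.5 on that scale. Alternatives were DESeq2 1.42.0, other scalings and filters, transcript length offsets, the whole-number matrix, only the compared groups, a replicate block, no fold threshold and each library left out. DESeq2 and the matrix without CF replicate 2 were chosen after seeing the data.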

Additional observations from a re-analysis of the deposited data

How the results depend on the processing

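The spread between 2 libraries per group, rather than depth, limits these values. Of the values of the 4 genes under alternatives, 429 kept their direction and their side of the threshold. Another 27 changed direction, and 24 kept their direction but passed the threshold only there. The cause was not tested. The values below are log2 fold changes, and treated stands for the mean of both current densities.

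Jun was called by DESeq2 at -1.42 for MF against CF, 1.17 for 2 µA against MF and 1.07 for treated against MF. For MF against CF it was also called at -1.41 with no filter and at -1.39 in the whole-number matrix (edgeR). With only the groups compared, edgeR called Jun at 1.19 for 2 µA and 1.08 for treated against MF, and Fos at 1.138 for 2 µA. By adjusted p alone Myc passed at 0.43 for treated against MF (edgeR adjusted p = 0.0471).

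In the fits added after seeing the data, DESeq2 without CF replicate 2 called Fos at 1.13 and Jun at 1.18 for 2 µA against MF, and at 1.05 and 1.07 for treated against MF. It turned MF against CF to 0.18 for Fos and 0.65 for Egr1. Treated against CF turned to 1.23 for Fos, 0.60 for Jun, 0.93 for Egr1 and 0.038 for Myc. Of these turned values, that of Fos in treated cells against the lone CF library was also called, as higher in treated cells. The matrix without CF replicate 2 called Jun at 1.11 and 1.01 for 2 µA and treated against MF. It turned MF against CF to 0.16 for Fos and 0.61 for Egr1, and treated against CF to 1.25, 0.46, 0.91 and 0.012 for Fos, Jun, Egr1 and Myc. Myc against CF, near 0 in treated cells, also changed sign with at least 10 counts (0.0011), with no filter (0.0042) and with length offsets (0.016).

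With each library left out in turn, MF against CF ranged from -2.93 to 0.18 for Fos, from -1.99 to -0.48 for Jun and from -1.85 to 0.65 for Egr1, with the lowest value without CF replicate 1 and the highest without CF replicate 2. Egr1 at 1 µA against MF ranged from -0.13 to 0.56. Jun ranged from 1.03 to 1.31 at 2 µA and from 0.98 to 1.18 for treated against MF, called only without either CF library. Treated against CF ranged from -1.87 to 1.23 for Fos, from -0.91 to 0.60 for Jun, from -1.56 to 0.93 for Egr1 and from -0.095 to 0.067 for Myc. Between 2 µA and 1 µA the range was -0.30 to 0.83 for Fos, -0.24 to 0.44 for Egr1 and -0.31 to 0.017 for Myc.

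Over all genes, adjusted p alone gave 2560 calls for MF against CF, 968 at 1 µA, 1097 at 2 µA and 2077 for treated against MF, and 1857 for treated against CF. DESeq2 gave 939 calls at 1 µA, 1034 at 2 µA and 7 between the current densities, and the compared groups alone gave 1164 at 1 µA. Between the current densities, 0 genes were called with at least 10 counts, with the compared groups alone and in the matrix. With each library left out, calls ranged from 336 to 1997 for MF against CF, 4 to 886 at 1 µA, 9 to 985 at 2 µA, 17 to 1101 for treated against MF, 645 to 1288 for treated against CF and 0 to 1 between the current densities. The fewest calls against MF came without MF replicate 1.

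Deviations of same-numbered libraries correlated between -0.172 and 0.242 across groups, the highest between the current densities. With a single difference per group, these values cannot decide whether the replicate numbers pair the samples. The labels do not state it, and the main fit assumed no pairing. With the replicate block, none of the 4 genes was called, and Myc for treated against MF had a log2 fold change of 0.43 with an edgeR adjusted p of 0.0744. Over all genes the block fit called 1279 for MF against CF and 821 for treated against MF.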
